A study of Homo sapiens with 6 samples.

Results

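The genes described here are 10 genes of the smooth-muscle-type contractile apparatus (ACTA2, ACTG2, TAGLN, CNN1, CNN2, MYL9, MYLK, TPM1, TPM2 and CALD1), chosen by gene name among the 60671 genes of the deposited expression table. They were measured by RNA-Seq in U87, an established cell line from a human glioblastoma. Of the 6 libraries, 3 came from cells given 100 μM rutaecarpine, an alkaloid of Evodia rutaecarpa, for 48 h, and 3 from solvent control cells given DMSO for the same time. Both groups received 0.1% DMSO in serum-free medium, and neither carried a genetic change made for the experiment. The labels do not say whether the libraries of a group came from separate cultures, so p values measure the spread between these libraries.

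In smooth muscle, force comes from myosin pulling on actin filaments. It is switched on when calcium and calmodulin activate myosin light chain kinase (MYLK), which phosphorylates the regulatory light chain (MYL9), while tropomyosins, caldesmon, calponins and transgelin lie along the actin filament. Many cultured cells that are not muscle use part of this set in stress fibres, the actin cables with which they pull on their substrate. Several of these genes are classic targets of serum response factor (SRF), which binds the CArG box and works with the actin-sensing coactivators MRTFA and MRTFB.

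The CArG box and the DRE, the element that the aryl hydrocarbon receptor binds, were searched for in promoter windows of RefSeq (GRCh38.p14), each from 250 bases before to 50 bases after a transcription start. Of the 10 genes, 8 had such a window and TAGLN and MYL9 had none in the table. The CArG box was searched as CC, then 6 letters that are each A or T, then GG. Boxes that depart from this form were not counted, so a gene without a match may still hold one. Matches were found in windows of ACTG2, CNN2 and MYLK, which is 3 of 8 genes. These 8 genes had 13 windows together, up to 4 for a gene, and 1.29% of all 35116 windows held a match. A count of genes with a match, here and below, is therefore not the same measure as a share of windows. The DRE core TNGCGTG, searched on both strands, was found in 1 gene, ACTA2, and in 5.51% of all windows. The following 30-base stretches are shown because they carry these matches, with the CArG box or DRE core in capitals, written 5′ to 3′ on the strand of the gene.
ACTG2, CArG box from -110 to -101, chr2:73892888-73892917, plus strand: gaaaaaaccaCCTTATATGGtaatattgct
ACTG2, CArG box from -73 to -64, chr2:73892925-73892954, plus strand: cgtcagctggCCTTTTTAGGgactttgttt
CNN2, CArG box from -89 to -80, chr19:1026509-1026538, plus strand: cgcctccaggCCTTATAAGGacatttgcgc
MYLK, CArG box from -94 to -85, chr3:123620623-123620652, minus strand: ataaaccatcCCTTTTATGGgagttgaagc
ACTA2, DRE core from -241 to -235, chr10:88952994-88953023, minus strand: ctgaaggctTGGCGTGtttatctcccacag
Positions are counted from the transcription start of the window. The MYLK start lies 263783 bases downstream of the 5′ end of the gene in GENCODE release 29, near its 3′ end, and the ACTA2 start lies 38566 bases downstream. MYLK had no other window, so none at the 5′ end of that gene was searched. The core CATTCC of TEAD factors, searched on both strands, was found in windows of 3 of the 8 genes, ACTA2, MYLK and CALD1, and in 14.0% of all windows, and CALD1 had 4 windows in which to find it. These matches describe letters in the windows and no binding was measured.

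The deposited values are TPM, in which the reads that RSEM estimates for a gene are divided by its length and scaled to the whole library, so levels of different genes can be set side by side. The TPM of a library summed to between 990889 and 995734, and read numbers cannot be recovered from them. For the test of each gene, log2(TPM + 1) was compared between the groups with limma across all 14377 genes that reached 1 TPM in 3 or more libraries, with Benjamini-Hochberg adjustment. A gene fell or rose where its adjusted p was at most 0.05, and was a DEG where its absolute log2 fold change was also above 1. The libraries differed in a way that the groups do not account for. Over the tested genes, log2(TPM + 1) had a median of 3.56 in control replicate 3 and between 3.81 and 4.00 in the others, and across genes the deviation of control replicate 3 from the mean of its group had a Pearson's r of -0.403 with log2 transcript length and of 0.446 with GC content. Results are therefore also given without this library.

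Of the markers of differentiated smooth muscle, some were near 0 and others abundant. MYH11, the smooth muscle myosin heavy chain, was at most 0.18 TPM in any library, MYOCD, the muscle coactivator of SRF, at most 0.2 TPM and DES, the muscle intermediate filament desmin, at most 0.75 TPM, while SMTN, which encodes smoothelin, lay between 78.5 and 146 TPM. VIM, the intermediate filament of mesenchymal and glial cells, lay between 4430 and 7968 TPM, while the astrocyte filament GFAP lay between 3.48 and 5.41 TPM and the astrocyte water channel AQP4 was listed at 0 in every library. The tumour suppressor genes CDKN2A and CDKN2B and their neighbour MTAP, which are known to be deleted in U87, were at most 0.06 TPM. Of 7 markers of mural cells of blood vessels, 5 were tested, and CSPG4 was the 1 that fell (log2 fold change -0.74). The 7 summed to between 81.6 and 123 TPM in the control libraries and between 72.7 and 91.5 TPM after rutaecarpine. Markers of endothelial cells reached at most 1.57 TPM, and of 5 immune cell genes PTPRC, CD14 and AIF1 reached at most 0.54 TPM and CSF1R lay between 5.98 and 8.33 TPM. The fifth, CD68, was abundant and fell, from between 452 and 511 TPM to between 319 and 357 TPM. Of the 5 immune cell genes, only CSF1R and CD68 were tested. Of 6 genes of fibroblasts, 5 were tested, of which FN1 and FAP fell and LUM rose. The sum of the 6, which is mostly FN1, went from between 5127 and 6838 TPM to between 2947 and 3591 TPM. Of 7 astroglial genes, 4 were tested, of which VIM and NES fell and OLIG2 rose. For comparison, 4.68% of all tested genes fell and 4.60% rose. The part of such markers in the results was not tested.

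After rutaecarpine, the transcripts of smooth muscle actin, calponin 2 and tropomyosin 1 fell, and none of the 10 rose. ACTA2 dropped to 0.415 times its control mean, CNN2 to 0.577 times and TPM1 to 0.596 times, while TPM2, the other smooth-muscle-type tropomyosin, was at 0.952 times. Of the 10 genes, 9 entered the test and 3 of these fell, where 4.68% of all tested genes fell and 4.60% rose. The 1 DEG was ACTA2, where 1.50% of all tested genes were DEGs that fell and 2.01% were DEGs that rose. The median log2 fold change of the 9 genes was -0.56, and that of all tested genes was 0.08. In 5 of the 9 genes all rutaecarpine libraries lay below all control libraries, as in 14.0% of all tested genes, and in 0 did they lie above, as in 19.3% of all tested genes. Without control replicate 3 the count that fell was 5, with MYLK and MYL9 added, and 0 rose, where 10.3% of the genes tested without it fell and 8.36% rose. In cells grown and harvested in bulk, fewer cells making a transcript and less of it per cell cannot be told apart.

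**Figure D1:**
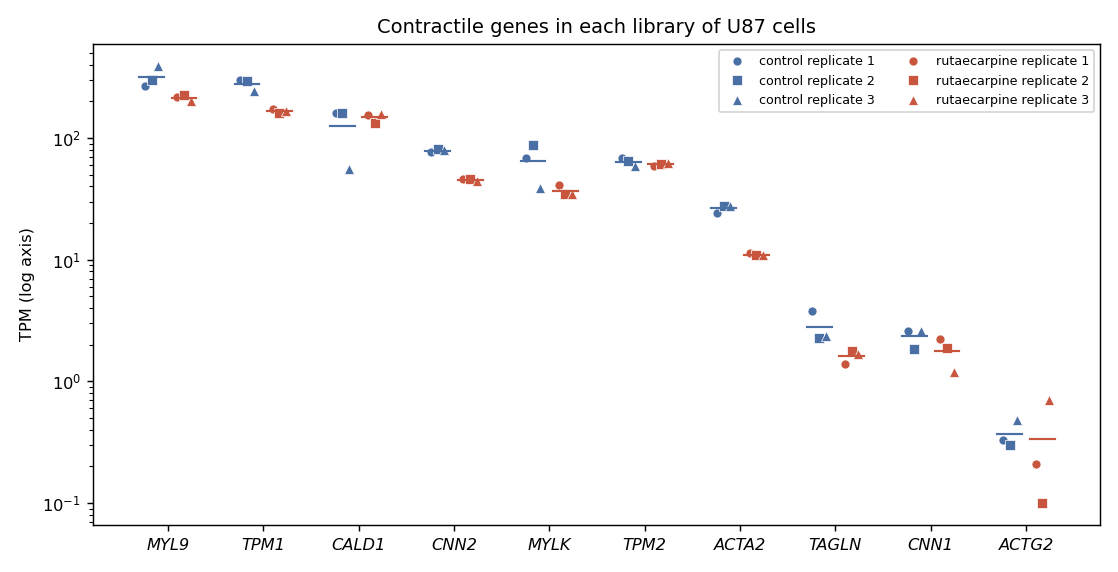
TPM of the 10 contractile genes in each library, on a log axis, ordered by the control mean. Points are single libraries, shapes mark the replicate and horizontal lines the mean of each group. ACTA2, CNN2 and TPM1 separate cleanly, with ACTA2 at 24.3 to 27.8 TPM in control and 10.8 to 11.3 TPM after rutaecarpine, and control replicate 3 is the low point of MYLK and CALD1.

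The levels of the 10 genes spanned a wide range in control cells. MYL9 (320 TPM) and TPM1 (280 TPM) were the most abundant by mean, followed by CALD1 (125 TPM), CNN2 (78.9 TPM), MYLK (65.0 TPM), TPM2 (63.7 TPM) and ACTA2 (26.5 TPM). TAGLN (2.81 TPM), CNN1 (2.34 TPM) and ACTG2 (0.37 TPM) were low. The libraries of MYL9 and TPM1 overlapped, as did those of CALD1 and CNN2, CNN2 and MYLK, MYLK and TPM2, and TAGLN and CNN1, so these neighbours were not ordered beyond their spread. The steps from TPM1 to CALD1, from TPM2 to ACTA2, from ACTA2 to TAGLN and from CNN1 to ACTG2 were clear of the spread. Thus the early and late smooth muscle markers TAGLN and CNN1 were scarce in a cell line in which other genes of the same apparatus were plentiful. After rutaecarpine, CNN2 (45.5 TPM) and MYLK (36.8 TPM) stood below TPM2 (60.7 TPM), and every library of both lay below every library of TPM2. Summed over the 10 genes, the control libraries held 972, 1019 and 903 TPM and the rutaecarpine libraries 706, 674 and 681 TPM. The difference of the means was -278 TPM and the groups did not overlap (exact permutation p = 0.1, two-sided, the smallest that 3 libraries against 3 can give).

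The smooth muscle actins form the thin filament of the contractile apparatus. ACTA2 (ENSG00000107796) is encoded on chromosome 10, 88935074 to 88991339 of GRCh38, minus strand. Its TPM was 24.3, 27.5 and 27.8 in control replicates 1, 2 and 3, and 11.3, 10.9 and 10.8 in rutaecarpine replicates 1, 2 and 3. The groups were far apart and the treated libraries nearly equal, with a coefficient of variation of 2.20%. The log2 fold change of ACTA2 was -1.19 (standard error 0.12, 95% interval -1.47 to -0.92, adjusted p = 0.00157). Leaving out any 1 library gave values from -1.25 to -1.16. The study listed ACTA2 among its migration-related genes on these same libraries, so its fall is not independent of that choice. It also measured ACTA2 by qPCR after 48 h of rutaecarpine and reported a change in the same direction. ACTG2 (ENSG00000163017; chromosome 2, 73892314 to 73919865, plus strand), the actin of visceral smooth muscle, had 0.33, 0.30 and 0.48 TPM in the control libraries and 0.21, 0.10 and 0.70 TPM after rutaecarpine. It was too low for the test and its groups overlapped.

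Actin genes are alike, and RSEM can split a read that fits more than 1 of them. How many reads this concerned cannot be read from TPM. The longest open reading frame of ACTA2 in GENCODE release 29 has 1134 bases and was identical to that of ACTG2 at 85.0% of aligned bases, to ACTC1 at 85.5%, to ACTA1 at 84.6%, to ACTG1 at 82.4% and to ACTB at 82.2%. The cardiac and skeletal muscle actins ACTC1 and ACTA1 were at most 0.52 and 0.25 TPM. The cytoplasmic actins were far more abundant, and ACTB fell from 4207 ± 239 TPM to 2924 ± 130 TPM (SD, n = 3 each). For ACTB, this was a log2 fold change of -0.52 ± 0.08 (standard error), with an adjusted p of 0.00917. ACTG1, the other cytoplasmic actin, had 6234 ± 1129 and 4981 ± 324 TPM and did not pass with all libraries (adjusted p = 0.251), but did without control replicate 3 (log2 fold change -0.47, adjusted p = 0.00532). ACTA2 and ACTG2 together made up 0.223%, 0.242% and 0.318% of all actin TPM in the control libraries and 0.137%, 0.145% and 0.148% after rutaecarpine. This share does not depend on how a library is scaled, and the groups did not overlap (exact permutation p = 0.1, two-sided). ACTA2 also overlaps 3 genes on the other strand, and the sources do not state whether strand was used in counting. STAMBPL1 had 13.8, 12.4 and 10.8 TPM in the control libraries and 8.64, 7.12 and 7.15 TPM after rutaecarpine. FAS had 16.7, 20.1 and 11.8 TPM in control and 11.6, 10.2 and 12.8 TPM after rutaecarpine, which overlapped. ACTA2-AS1 reached 0.44 TPM and also lay lower in all treated libraries. The part of these genes in the fall of ACTA2 was not tested.

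Tropomyosins wind along the actin filament and set which proteins reach it. TPM1 (ENSG00000140416; chromosome 15, 63042632 to 63071915, plus strand) had 299, 297 and 245 TPM in control replicates 1, 2 and 3, and 173, 159 and 168 TPM in rutaecarpine replicates 1, 2 and 3. All treated libraries lay well below all controls. The log2 fold change of TPM1 was -0.74 (standard error 0.10, 95% interval -0.97 to -0.51, adjusted p = 0.0054). TPM2 (ENSG00000198467; chromosome 9, 35681992 to 35690121, minus strand) had 68.2, 64.5 and 58.4 TPM in the control libraries and 58.4, 61.7 and 62.0 TPM after rutaecarpine. Its groups overlapped, with a log2 fold change of only -0.07 (standard error 0.09, 95% interval -0.29 to 0.15, adjusted p = 0.688). The other tropomyosins, TPM3 (322 ± 37.8 and 298 ± 16.2 TPM) and TPM4 (748 ± 84.8 and 686 ± 43.3 TPM), did not pass either, with adjusted p values of 0.567 and 0.523.
The share of TPM1 among tropomyosin transcripts varied little within each group. TPM1 held 20.0%, 19.6% and 19.9% of tropomyosin TPM in the control libraries and 13.7%, 14.0% and 13.7% after rutaecarpine. Control replicate 3 did not stand apart in this share. TPM2 held 4.57%, 4.26% and 4.74% in control and 4.62%, 5.40% and 5.04% after rutaecarpine, which overlapped. For TPM1 and TPM2 together, the share went from 24.3% ± 0.44 to 18.8% ± 0.51 (SD, n = 3 each, exact permutation p = 0.1, two-sided). TPM1 is annotated with 34 transcripts and TPM2 with 12, and the gene-level values do not tell the muscle from the non-muscle isoforms.

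Calponins and transgelin bind along actin, and calponin can slow the myosin motor. CNN2 (ENSG00000064666; chromosome 19, 1026581 to 1039068, plus strand), the calponin common in cells that are not muscle, had 76.6, 80.5 and 79.5 TPM in control replicates 1, 2 and 3, and 46.3, 45.7 and 44.4 TPM in rutaecarpine replicates 1, 2 and 3. The spread within each group was small, with coefficients of variation of 2.57% and 2.13%. The log2 fold change of CNN2 was -0.78 (standard error 0.08, 95% interval -0.97 to -0.59, adjusted p = 0.00186). AC011558.1, a gene model on the other strand of this locus, ranged from 3.82 to 34.5 TPM across the libraries.
CNN1 (ENSG00000130176; chromosome 19, 11538717 to 11550323, plus strand), the calponin of differentiated smooth muscle, had 2.60, 1.83 and 2.60 TPM in control and 2.23, 1.88 and 1.19 TPM after rutaecarpine. The groups overlapped (log2 fold change -0.28, standard error 0.21, adjusted p = 0.464). CNN3, the third calponin, fell with CNN2, from 54.2 ± 4.91 to 30.3 ± 1.98 TPM (SD, n = 3 each). For CNN3, this was a log2 fold change of -0.82 ± 0.11 (standard error), with an adjusted p of 0.0054. Since CNN2 and CNN3 both fell, the share of CNN2 among calponins was 58.3% ± 2.34 in control and 58.7% ± 1.39 after rutaecarpine (exact permutation p = 0.9, two-sided). CNN1 held 1.74% ± 0.371 and 2.26% ± 0.602 (SD, n = 3 each, exact permutation p = 0.3, two-sided).
TAGLN (ENSG00000149591; chromosome 11, 117199321 to 117204782, plus strand), which encodes transgelin, had 3.79, 2.27 and 2.37 TPM in control and 1.38, 1.78 and 1.68 TPM after rutaecarpine. All treated libraries were below all controls, but the controls spread widely, and the log2 fold change of -0.52 (standard error 0.21, 95% interval -1.01 to -0.03) did not pass (adjusted p = 0.179). Its relative TAGLN2, the transgelin of non-muscle cells, fell from 1055 ± 73.4 to 700.2 ± 38.0 TPM (SD, n = 3 each). For TAGLN2, this was a log2 fold change of -0.59 ± 0.08 (standard error), with an adjusted p of 0.00624. TAGLN held 0.378%, 0.220% and 0.208% of transgelin TPM in control and 0.192%, 0.244% and 0.255% after rutaecarpine, which overlapped (exact permutation p = 0.8, two-sided).

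**Figure D2:**
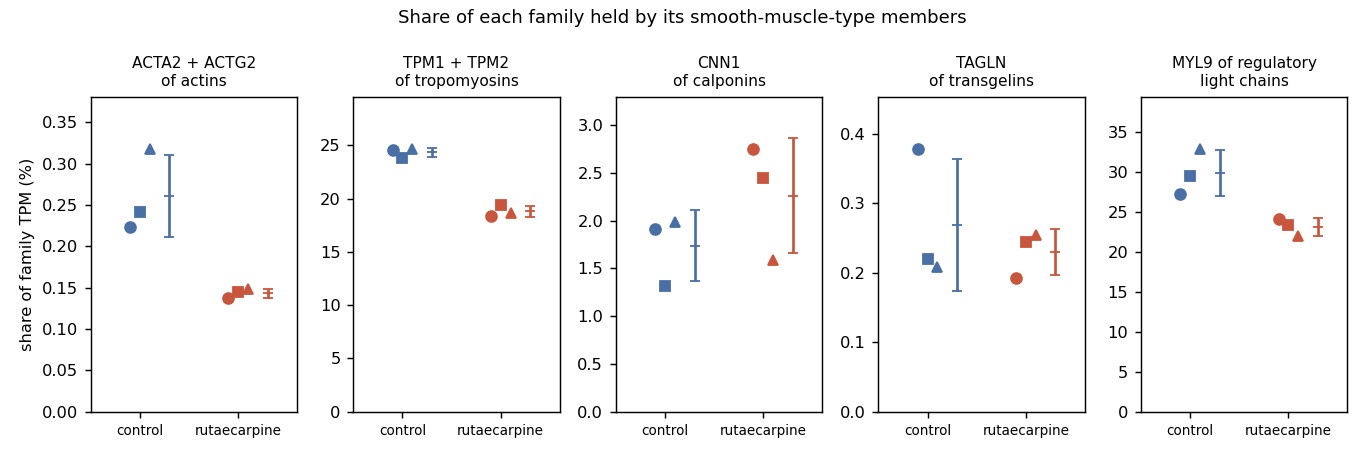
Share of the summed TPM of each protein family that its smooth-muscle-type members held, in percent, in each library, with each vertical axis starting at 0. Points are single libraries, shapes mark the replicate, and bars to the right of them give the mean and SD of 3 libraries. The groups separate for actins, tropomyosins (24.3% to 18.8%) and regulatory light chains (29.8% to 23.1%), and overlap for CNN1 and TAGLN.

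The regulatory light chain and its kinase make the switch of contraction. MYL9 (ENSG00000101335; chromosome 20, 36541484 to 36551447, plus strand) had 269, 299.6 and 392 TPM in control replicates 1, 2 and 3, and 219, 225 and 201 TPM in rutaecarpine replicates 1, 2 and 3. All treated libraries lay below all controls, and control replicate 3 was the highest of the 6. The log2 fold change of MYL9 was -0.56 (standard error 0.14, 95% interval -0.89 to -0.22), just short of the threshold (adjusted p = 0.057). Without control replicate 3 it was smaller, at -0.40, and passed (standard error 0.08, adjusted p = 0.0121). Without control replicate 1 it was -0.67 and also passed (adjusted p = 0.0489). Leaving out control replicate 2 or any 1 rutaecarpine library, MYL9 did not pass (adjusted p from 0.113 to 0.214). Of 14 alternative runs, MYL9 passed in 4. MYL12A and MYL12B, the light chains of non-muscle myosin, had 391 ± 13.4 and 355 ± 35.2 TPM in control and 374 ± 10.1 and 341 ± 21.5 TPM after rutaecarpine (SD, n = 3 each), with adjusted p values of 0.595 and 0.765. MYL9 therefore made up a smaller part of the regulatory light chains, 27.2%, 29.5% and 32.8% in control and 24.1%, 23.3% and 21.9% after rutaecarpine (exact permutation p = 0.1, two-sided).
MYLK (ENSG00000065534; chromosome 3, 123610049 to 123884331, minus strand) had 68.9, 87.2 and 38.9 TPM in control replicates 1, 2 and 3, and 40.8, 34.9 and 34.7 TPM in rutaecarpine replicates 1, 2 and 3. Control replicate 3 lay among the treated libraries, at 49.8% of the mean of the other controls. With all libraries, MYLK had a log2 fold change of -0.73 (standard error 0.27, 95% interval -1.38 to -0.09) and did not pass (adjusted p = 0.159). Without control replicate 3, MYLK was a DEG with a log2 fold change of -1.06 (standard error 0.12, 95% interval -1.35 to -0.77, adjusted p = 0.00139). Leaving out any other single library, MYLK did not pass (adjusted p from 0.284 to 0.378), and it passed in 4 of 14 alternative runs. MYLK has the longest transcript of the 10 genes, at 10027 bases, and MYL9 the highest GC content, at 60.5%. After the trends of each library on transcript length and GC content were removed, both genes passed with all 6 libraries, MYLK at a log2 fold change of -0.86 (adjusted p = 0.00788) and MYL9 at -0.54 (adjusted p = 0.0289). The study also counted MYLK among its migration-related genes, which it drew from its own differentially expressed genes in these libraries. Its call of MYLK thus differs from the fit with all libraries here, in which MYLK did not pass. The gene-level value does not separate the kinase from telokin, a short product known to start inside MYLK, and MYLK-AS1 on the other strand lay between 1.90 and 3.18 TPM.

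CALD1 (ENSG00000122786; chromosome 7, 134744252 to 134970728, plus strand) encodes caldesmon, which holds actin and myosin apart until it is released. Its TPM was 159.4, 159.2 and 56.0 in control replicates 1, 2 and 3, and 153.8, 132.8 and 156.3 in rutaecarpine replicates 1, 2 and 3. A single control library was far from the others, at 35.2% of the mean of control replicates 1 and 2, and CALD1 had the lowest GC content of the 10 genes, 41.6%. The log2 fold change of CALD1 was 0.38 (standard error 0.38, 95% interval -0.52 to 1.29, adjusted p = 0.578) with all libraries and turned to -0.11 (standard error 0.08, 95% interval -0.31 to 0.09, adjusted p = 0.412) without control replicate 3. The second interval leaves room for a fall of at most 0.31 on the log2 scale. No change of caldesmon transcripts was detectable in either fit.

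**Figure D3:**
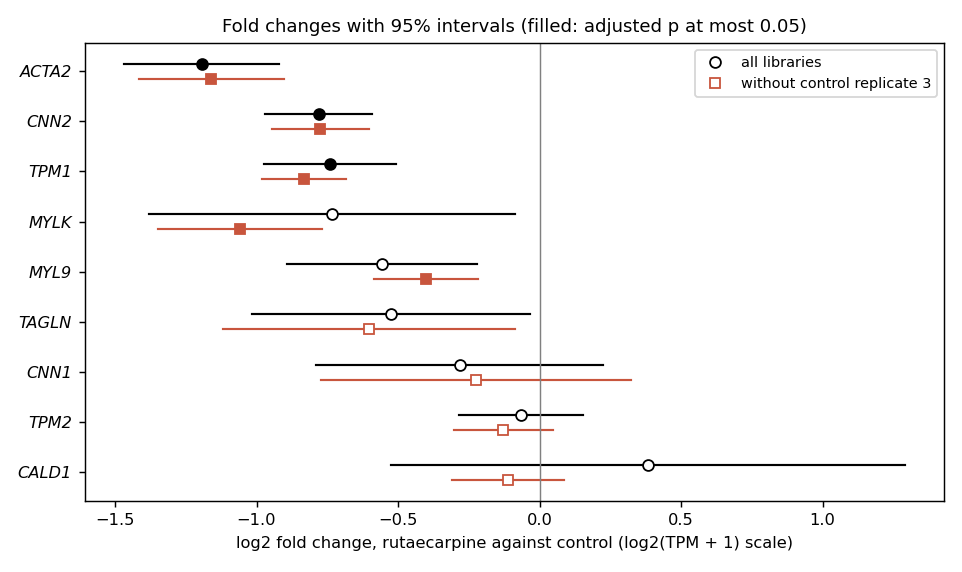
Log2 fold change of the 9 tested genes on the log2(TPM + 1) scale, with 95% intervals, for all libraries (black circles) and without control replicate 3 (red squares). Filled symbols have an adjusted p of at most 0.05. ACTA2, CNN2 and TPM1 are filled in both, MYLK (-1.06) and MYL9 (-0.40) without that library, and CALD1 moves from 0.38 to -0.11.

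The other parts of the actomyosin system were compared by lists of related genes. Of all tested genes, 4.68% fell and 4.60% rose. Of 21 further genes of smooth muscle differentiation, 8 were high enough to be tested. CSRP1, a LIM protein of actin cables, fell from 219 ± 12.0 to 166 ± 11.0 TPM (SD, n = 3 each) and 0 rose, and the median log2 fold change was -0.15. SMTN lay higher in all treated libraries, at 137 ± 8.11 TPM against 97.1 ± 16.8 TPM (SD, n = 3 each). SMTN did not pass (adjusted p = 0.0678), but did without control replicate 3 (log2 fold change 0.36, adjusted p = 0.0194). The direction of SMTN was thus opposite to that of ACTA2. PDLIM7 of the same list lay lower in all treated libraries and did not pass (adjusted p = 0.0734). Without control replicate 3 PDLIM7 passed, with a log2 fold change of -0.26 (adjusted p = 0.0439). Without that library, 2 genes of this list fell and 1 rose, where 10.3% of all genes fell and 8.36% rose. Of 20 genes of the striated muscle apparatus, 17 were not tested and 0 of the other 3 passed. TNNT1, the troponin T of slow skeletal muscle, was the abundant exception at 269 to 391 TPM (adjusted p = 0.0761), and passed without control replicate 3 (log2 fold change -0.26, adjusted p = 0.0489).

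Of 20 non-muscle actomyosin genes, 18 were tested, and their median log2 fold change was -0.30. Among the 18, 6 fell and 0 rose, where 4.68% of all tested genes fell and 4.60% rose. Beside ACTB, CNN3 and TAGLN2, those of the list that fell included ACTN4 (log2 fold change -0.68) and FLNA (-0.40), which crosslink actin filaments. Without control replicate 3, 10 of the list fell and 0 rose, where 10.3% of all genes fell and 8.36% rose. Among 17 genes of actin monomer binding and filament turnover, with all libraries, 3 fell and 1 rose, beside 4.68% and 4.60% of all tested genes. TMSB4X and TMSB10, the thymosins that hold actin monomers, fell by 1.42 and 0.72 on the log2 scale, and GSN, which severs filaments, fell by 0.46. SSH1, a phosphatase that activates the severing protein cofilin, rose from 12.6 ± 5.10 to 35.5 ± 9.46 TPM (SD, n = 3 each). TMSB4X and SSH1 are also among the migration-related genes that the study chose on these libraries. For TMSB4X it also reported a qPCR change in the same direction.
Of 21 genes around the phosphorylation of the light chain, 20 were tested, and their median log2 fold change was 0.13. Among the 20, 2 fell and 2 rose, where 4.68% of all tested genes fell and 4.60% rose. Without control replicate 3 the median was 0.03, 2 fell and 3 rose, the added riser being PPP1R12C, a subunit of myosin phosphatase. Of all genes tested without that library, 10.3% fell and 8.36% rose. The calmodulin genes CALM3 (log2 fold change -0.86, standard error 0.08, adjusted p = 0.00122) and CALM2 (-0.32) fell. RHOB, a small GTPase, and LIMK1, which phosphorylates cofilin, rose by 0.72 and 0.51 on the log2 scale.

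Of 21 genes known to regulate smooth muscle genes, 20 were tested. Among the 20, 0 fell and 1 rose, where 4.68% of all tested genes fell and 4.60% rose. Their median log2 fold change was 0.09, beside 0.08 for all tested genes. SRF itself had 11.8 ± 0.944 TPM in control and 12.6 ± 0.540 TPM after rutaecarpine (SD, n = 3 each, log2 fold change 0.09, standard error 0.13, adjusted p = 0.709). MRTFA (log2 fold change -0.11, adjusted p = 0.736) and MRTFB (0.26, adjusted p = 0.713) did not pass. The gene that rose was GATA6, a transcription factor of smooth muscle and other tissues, from 4.44 ± 0.341 to 8.02 ± 0.289 TPM. Without control replicate 3 the median was -0.17, beside -0.0074 for all genes tested without it. In that fit 5 of these regulators fell and 1, GATA6, rose, where 10.3% of all genes fell and 8.36% rose. The 5 were TGFB2, a TGF-beta ligand, its receptors TGFBR1 and TGFBR2, WWTR1, which encodes the coactivator TAZ, and its DNA-binding partner TEAD1, with log2 fold changes from -0.64 (TEAD1) to -0.38 (WWTR1).
Known targets of SRF outside the contractile apparatus were compared in the classes set by its partners. Of all tested genes, 4.68% fell and 4.60% rose. Of 6 tested genes of the MRTF class (SRF among them), 1 fell and 0 rose. This was CCN2, the matricellular growth factor CTGF, from 15.9 ± 1.78 to 5.04 ± 0.546 TPM (SD, n = 3 each), or -1.48 ± 0.16 on the log2 scale (standard error), with an adjusted p of 0.00207. CCN2 was also chosen by the study on these libraries. ANKRD1, a nuclear ankyrin-repeat protein, lay higher in all treated libraries, and CCN1 and TGFB1I1 of the MRTF class lay lower in all. ANKRD1 (log2 fold change 0.72, adjusted p = 0.061), CCN1 (-0.45, adjusted p = 0.124) and TGFB1I1 (-0.19, adjusted p = 0.298) did not pass. Without control replicate 3, 2 genes of this class fell, CCN2 and CCN1 (for CCN1 -0.515, adjusted p = 0.0434), and 0 rose. Of all genes tested without it, 10.3% fell and 8.36% rose. Of 8 tested immediate-early genes, which SRF regulates with ternary complex factors, 5 rose and 0 fell. EGR1 rose from 36.7 ± 2.86 to 129 ± 12.9 TPM (log2 fold change 1.79, adjusted p = 0.000334) and EGR2 from 19.2 ± 5.79 to 64.3 ± 6.73 TPM (SD, n = 3 each). FOSB, IER2 and JUNB rose by 1.07, 0.63 and 0.47 on the log2 scale. The difference between these classes and the contractile genes was not tested.

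**Figure D4:**
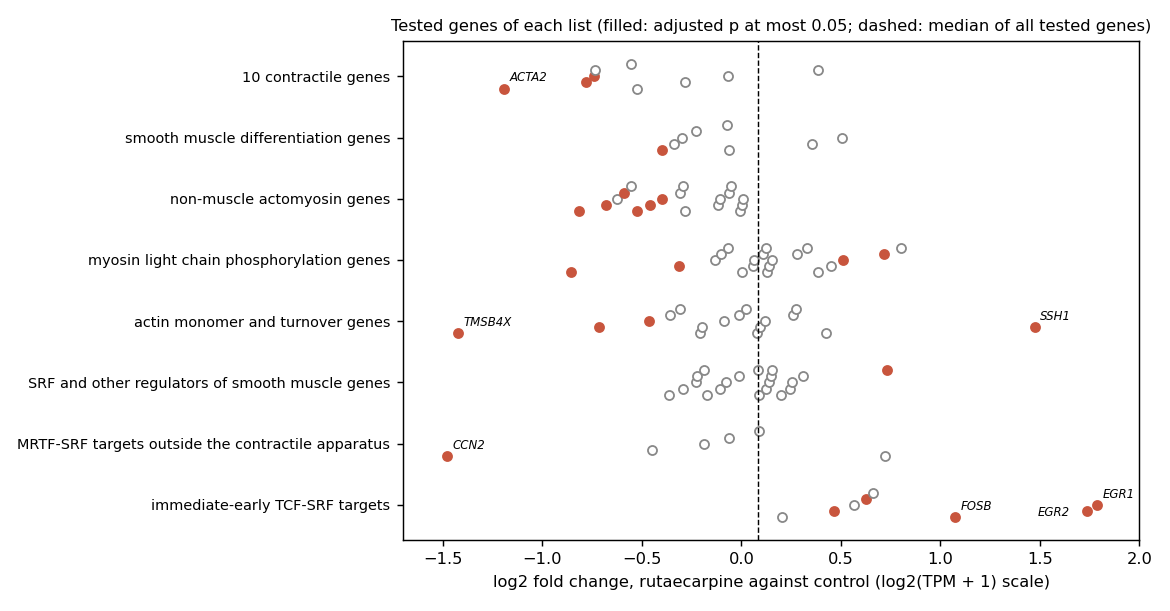
Log2 fold change of each tested gene in the 10 contractile genes and 7 related lists, on the log2(TPM + 1) scale. Filled points have an adjusted p of at most 0.05, vertical offsets within a row only keep points apart, and the dashed line is the median of all tested genes (0.08). The 3 filled points of the contractile genes lie to the left of 0, while the 5 of the immediate-early genes lie to the right, led by EGR1 at 1.79.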

How the data were processed

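RNA-Seq of U87 cells after 48 h in 100 μM rutaecarpine was compared with solvent control, with 3 libraries in each group and groups and replicate numbers from the sample titles. The authors sequenced on an Illumina NovaSeq, quantified genes with RSEM and deposited TPM per library. The submitters' processing notes name GRCh38.p13, and the aligner and annotation release are not given in the sources used here. All 6 columns were matched to samples and 0 were left over.

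Values were analysed as log2(TPM + 1). The 14377 genes that reached 1 TPM in 3 or more libraries were fitted with limma 3.58.1 in R 4.3.3 (empirical Bayes with a mean-variance trend, two-sided), with Benjamini-Hochberg adjustment over all of them. The added 1 understates changes of low genes. Shares and sums of TPM were compared by exact permutation. Gene positions came from GENCODE release 29 (GRCh38) and promoter windows from RefSeq. Python 3.11.15 was used for tables and figures. The limma step was tested on simulated data.

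The 10 genes and the lists were chosen with earlier results of these data known. The genes named are the 10, their family relatives and, in each list, up to 4 of those that passed with the largest fold changes. SMTN, PDLIM7, TNNT1, FLNA, JUNB, ANKRD1, CCN1, TGFB1I1, PPP1R12C, SRF, MRTFA, MRTFB, TGFB2, TGFBR1, TGFBR2, WWTR1 and TEAD1 do not fall under this rule. They, the overlapping genes and the marker genes were added once their values had been seen.

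The alternatives were centring on library medians, no trend, no filter, a minimum of 1 TPM in all libraries, a pseudocount of 0.1, a replicate block, library weights, a correction for transcript length and GC content (splines with 5 degrees of freedom on each library's deviation from the mean of all libraries, 14267 genes), leaving out each library, and an adjusted p of at most 0.001 for DEGs.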

Additional observations from a re-analysis of the deposited data

How the results depend on the processing

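The falls of ACTA2, CNN2 and TPM1 passed in every alternative run, with log2 fold changes of -1.29 to -1.16, -0.87 to -0.76 and -0.83 to -0.69, and 0 members rose in any of them. The count that fell was 5 with library weights, where 2027 of 14377 tested genes fell, against 673 in the main fit. It was also 5 after the length and GC correction, where 1461 of 14267 genes fell. In both cases the 5 were ACTA2, CNN2, TPM1, MYLK and MYL9. When each library was left out, the count ranged from 3 to 5. It was 5 only without control replicate 3, where 1466 of 14188 genes fell. Without any other single library, between 258 and 308 genes fell, of 14081 to 14159 tested. Of the members, 2 were DEGs with library weights (ACTA2 and MYLK), where 290 of 14377 genes were DEGs that fell, against 216 in the main fit. At an adjusted p of at most 0.001, 0 members were DEGs, and the count over all genes was not taken. When each library was left out, 1 to 2 members were DEGs. The count was 2 only without control replicate 3, where 305 of 14188 genes were DEGs that fell. The log2 fold change of CALD1 turned to -0.030 with library weights and ranged from -0.11 (without control replicate 3) to 0.63 (without control replicate 1) on leaving out each library. The transgelin share difference of -0.0384 percentage points turned to 0.0233 with medians, and ranged from -0.0688 to 0.0162 on leaving out each library, turning without control replicate 1. The summed TPM differed by -187 without CALD1 and TPM1, which takes out 2 abundant members. Leaving out each library gave differences of -309 to -251 for that sum, -0.136 to -0.0892 percentage points for the actin share, -5.82 to -5.32 for tropomyosins, 0.283 to 0.862 for calponins and -8.05 to -5.24 for light chains.
Same-numbered libraries of the groups did not deviate together (Pearson's r across genes of 0.116, -0.266 and -0.215). These deviations also carry the trends of each library with transcript length and GC content. Whether same-numbered libraries shared a culture or a day therefore cannot be told from them. With the replicate number as a block, 3 members fell, at adjusted p values of 0.0311 for ACTA2, 0.0355 for CNN2 and 0.0412 for TPM1. Over all tested genes, 673 fell and 662 rose, against 192 and 236 with the block, 2027 and 1935 with library weights, 1461 and 1301 after the length and GC correction and 1466 and 1186 without control replicate 3. Read numbers are unknown, so how far depth limits the low genes ACTG2, CNN1 and TAGLN cannot be given.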
